A study of Arabidopsis thaliana with 6 samples.

Results

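The genes for the subunits of the 26S proteasome were examined in Arabidopsis thaliana seedlings. They were 51 loci, taken by subunit identity, out of 28141 features with values in the files. No measured value decided which loci belong, but the set was chosen with earlier results of these data known. Of these loci, 12 encode subunits of the 20S alpha ring (PA genes), 11 encode subunits of the 20S beta ring (PB genes), 10 encode ATPases of the 19S regulatory particle (RPT genes) and 18 encode its other subunits (RPN genes). All 51 were found in the files, and all passed the filter on low values.

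The 26S proteasome degrades proteins that carry a ubiquitin chain. Its 20S core is a barrel of stacked rings, in which the outer alpha rings gate the entrance and the inner beta rings hold the proteolytic sites. The 19S particle caps the barrel, where RPN subunits bind and remove ubiquitin and a ring of RPT ATPases unfolds the substrate and threads it into the core. In plants the complex turns over many regulators of hormone and light signalling, and most of its subunits are encoded by pairs of closely related genes.

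RNA had been sequenced from whole seedlings of accession Col-0, 5 days old, in 3 libraries of the genotype fip37-4 LEC1:FIP37 and 3 libraries of Wild-type. All were grown in 16 h light and 8 h dark at 23 °C. FIP37 belongs to the m6A writer, which places N6-methyladenosine in mRNA, fip37-4 is a mutant allele of it, and strong FIP37 alleles are lethal to the embryo. The transgene carries FIP37 behind the promoter of LEC1, a regulator of the embryo, which lets seedlings be obtained; the labels do not say how many transgenic lines were used. Wild-type carries neither the allele nor the transgene. Whether replicates were grown separately is not stated in the labels; p-values therefore cover no more than the scatter of these 6 samples, possibly technical. The values are FPKM (fragments normalised to transcript length and library total), summed over the isoforms of a locus.

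FIP37 was at 80.6, 65.0 and 67.5 FPKM in the libraries labelled fip37-4 LEC1:FIP37, against 8.99, 9.03 and 8.96 FPKM in those labelled Wild-type. This level sums transgene and endogenous transcripts, so it does not show a loss of FIP37, and every direction given here is that of the libraries as labelled. No fragment totals are given in the sources used here. The smallest values moved in steps of a single fragment, worth 0.0187 to 0.0263 FPKM on a transcript of 1500 nt, and by these steps and their lengths the proteasome genes rested on about 243 to 5132 fragments in a library. Replicate 1 of fip37-4 LEC1:FIP37 stood apart from the other two of its genotype on the second principal component, at 21 against -8.81 and -13.9, and gave the lowest value of its genotype in 32 of the 51 proteasome genes and in 40.8% of all tested features. In Wild-type, replicate 2 gave the lowest value in 38 of the 51 genes and in 42.9% of all tested features, and replicate 3 the highest in 34 genes and in 42.0%. All 4 markers of green shoot tissue were higher in fip37-4 LEC1:FIP37, and their summed level was 30616 to 34048 FPKM there and 21412 to 22329 FPKM in Wild-type. These markers moved with the scaling: after quantile normalization their log2 fold changes were 0.28 for RBCS1A, 0.27 for LHCB2.1, 0.15 for PSAD1 and 0.02 for LHCB1.3, which lost its call, in place of 0.84, 0.84, 0.57 and 0.39. Among 4 markers of dividing cells, 3 were lower and CYCB1;1 did not pass the test (it was lower after quantile normalization), with a summed level of 22.2 to 24.5 FPKM in fip37-4 LEC1:FIP37 and 37.0 to 40.03 FPKM in Wild-type. Of 3 tested root markers, CASP1 was lower, EXPA7 was higher and PYK10 did not pass the test (0.03, and -0.44 with a call after quantile normalization). A further root marker, COBL9, was under the filter, at a mean of 0.582 FPKM in fip37-4 LEC1:FIP37 and 0.412 FPKM in Wild-type. The summed level over 4 root markers was 1144 to 1190 FPKM in fip37-4 LEC1:FIP37 and 1138 to 1162 FPKM in Wild-type. Nearly all of this sum was PYK10, at means of 1154.5 and 1131.1 FPKM, so it says little about the other root markers. Of 2 pollen markers, both under the filter, VGD1 was listed at 0 in 5 of 6 libraries and AGP6 was at 0.128, 0.106 and 0.0496 FPKM in fip37-4 LEC1:FIP37, against 0.0393, 0.0721 and 0.083 FPKM in Wild-type. In whole seedlings, fewer cells of a type and less RNA per cell cannot be told apart, and the part that tissue make-up has in the differences below was not tested.

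Of the 51 genes, 45 were lower and 2 were higher in fip37-4 LEC1:FIP37 (limma on log2(FPKM + 0.5), Benjamini-Hochberg adjusted p under 0.05 over 19383 tested features). Over all tested features 30.9% were lower and 27.6% were higher. The genes that were higher were RPN1A and RPN1B, and those that passed in neither direction were RPT2B, RPT6B, RPN2A and RPN2B. The median log2 fold change of the 51 genes was -0.38, with quartiles of -0.53 and -0.29, beside a median of 0.00 and quartiles of -0.29 and 0.26 for all tested features. Of all tested features, 18.8% lay below the median of the proteasome genes. The standard deviation of the log2 fold changes was 0.26 over the 51 genes and 0.49 over all tested features. Over the 6209 tested features within the range of length and mean level of the 51 genes it was 0.42.

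The 2 groups of libraries did not overlap for 48 of the 51 genes. All 3 fip37-4 LEC1:FIP37 values lay below all 3 Wild-type values in 45 genes and above them in 3, which were RPN1A, RPN1B and RPN2A, beside 34.1% and 31.9% of all tested features. After quantile normalization 37 genes were lower and 4 were higher (27.7% and 27.4% of all tested features), and after rescaling to the FPKM of nuclear genes 46 were lower and 2 higher (31.2% and 23.7%). Without fip37-4 LEC1:FIP37 replicate 1, 44 genes were lower and 2 were higher. The summed level of the 51 genes was 1236, 1290 and 1295 FPKM in fip37-4 LEC1:FIP37, against 1716, 1670 and 1757 FPKM in Wild-type, a difference of -25.7%. As a share of the FPKM of all nuclear genes they made up 0.253% ± 0.007 in fip37-4 LEC1:FIP37 and 0.346% ± 0.00451 in Wild-type (SD, n = 3 each).

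**Figure D1:**
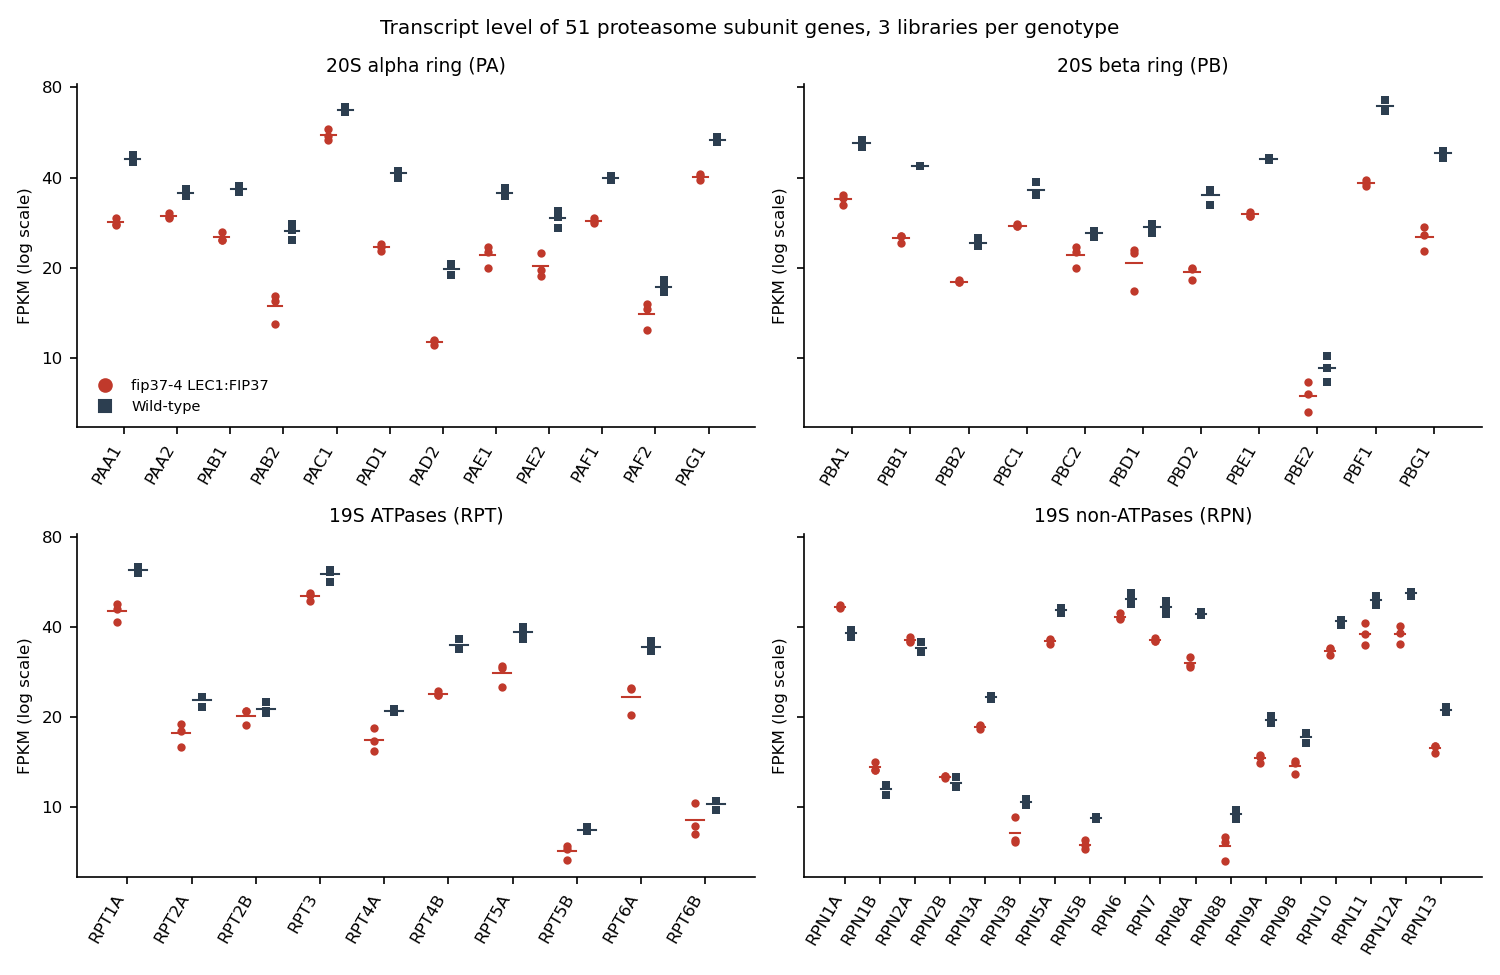
Level of each of the 51 genes in FPKM on a log axis, with circles for the 3 fip37-4 LEC1:FIP37 libraries, squares for the 3 Wild-type libraries and a short line at each mean, in a panel per subcomplex. The circles lie below the squares for all 12 alpha-ring and all 11 beta-ring genes, and above them for RPN1A, RPN1B and RPN2A.

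All 12 alpha-ring genes were lower, with a median log2 fold change of -0.52, and all 11 beta-ring genes were lower, with a median of -0.61. Of the RPT genes 8 of 10 were lower, with a median of -0.34. Of the RPN genes 14 of 18 were lower and 2 were higher, with a median of -0.33, and the 14 that are not RPN1 or RPN2 genes had a median of -0.34. The alpha-ring sum was 304, 315 and 322 FPKM in fip37-4 LEC1:FIP37, against 451, 438 and 457 FPKM in Wild-type, a difference of -30.1%. The beta-ring sum was 260, 270 and 273 FPKM in fip37-4 LEC1:FIP37, against 417, 407 and 428 FPKM in Wild-type, a difference of -35.9%. The RPT and RPN sums differed by -22.6% and -15.9%. These comparisons between subcomplexes are descriptions over genes and were not tested.

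**Figure D2:**
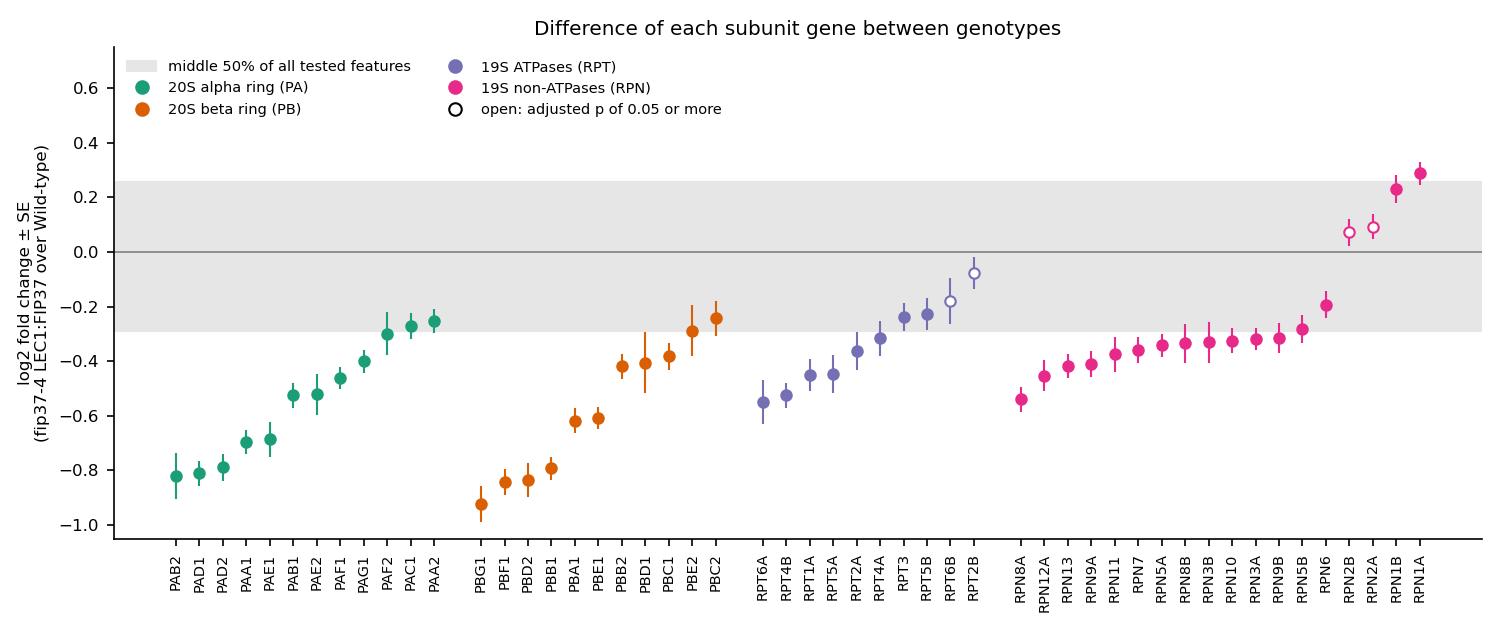
Log2 fold change (fip37-4 LEC1:FIP37 over Wild-type) with its standard error for each gene, ordered within the 4 subcomplexes, with open circles for genes at an adjusted p of 0.05 or more and a grey band for the middle 50% of all tested features. Alpha-ring and beta-ring genes reach down to -0.82 and -0.92, RPT and RPN genes to -0.55 and -0.54, and 4 RPN genes lie above 0.

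Since most of the genes were lower together, the DNA before their annotated starts was read for the proteasome-related cis-element TGGGC, which in Arabidopsis is known as a binding site of the transcription factors NAC53 and NAC78. It lies within the longer site II element, TGGGCC or TGGGCT, found before many genes of growing cells. Within 250 bases before the start, on either strand, TGGGC was present for 24 of the 51 genes (47.1%), and for 22.7% of 27443 nuclear protein-coding genes in windows of the same length. At least 2 matches were present for 35.3% of the proteasome genes and for 12.6% of all. TGGGCC or TGGGCT was present for the same number of proteasome genes, 24, and for 19.2% of all genes. By subcomplex TGGGC was present for 5 of 12 alpha-ring, 7 of 11 beta-ring, 3 of 10 RPT and 9 of 18 RPN genes.

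The element was present for 21 of the 45 lower genes (46.7%) and for 3 of the 6 others. The median log2 fold change was -0.40 for the 27 genes without a match, -0.32 for the 6 with 1 match, -0.32 for the 10 with 2 matches and -0.48 for the 8 with 3 or more. In 30 windows no other annotated gene was present, and 15 of these held TGGGC. The windows printed next, from RefSeq assembly TAIR10.1, are among those 30. They are those with the most matches of each subcomplex within the 30 (PAF2, PBB1, RPT1A and RPN1B, with PBA1 and PBB2 equal to PBB1 at 3) and that before the gene with the highest fold change (RPN1A). PAD1 and RPT2A, with 3 matches each, have windows that overlap another annotated gene and are not shown. Each reads 5′ to 3′ toward the gene start, and capitals mark TGGGC or its reverse complement.
PAF2 (chr1:17318869-17319118, plus strand): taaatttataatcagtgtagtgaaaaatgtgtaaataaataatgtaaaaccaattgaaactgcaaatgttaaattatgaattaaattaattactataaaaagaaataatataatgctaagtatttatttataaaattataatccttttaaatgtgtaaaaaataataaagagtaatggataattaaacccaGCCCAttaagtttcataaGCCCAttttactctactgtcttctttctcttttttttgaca
PBB1 (chr3:10152208-10152457, plus strand): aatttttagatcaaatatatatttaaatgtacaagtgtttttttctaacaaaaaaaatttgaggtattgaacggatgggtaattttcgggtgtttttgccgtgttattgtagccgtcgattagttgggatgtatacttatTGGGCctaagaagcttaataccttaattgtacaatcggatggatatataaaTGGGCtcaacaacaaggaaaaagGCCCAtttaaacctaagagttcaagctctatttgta
RPT1A (chr1:20068501-20068750, minus strand): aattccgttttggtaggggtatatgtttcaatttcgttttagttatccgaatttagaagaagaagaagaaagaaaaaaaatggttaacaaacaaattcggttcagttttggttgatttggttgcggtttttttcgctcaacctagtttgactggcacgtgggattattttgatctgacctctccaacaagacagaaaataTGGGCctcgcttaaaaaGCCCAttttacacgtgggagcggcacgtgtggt
RPN1B (chr4:14072583-14072832, minus strand): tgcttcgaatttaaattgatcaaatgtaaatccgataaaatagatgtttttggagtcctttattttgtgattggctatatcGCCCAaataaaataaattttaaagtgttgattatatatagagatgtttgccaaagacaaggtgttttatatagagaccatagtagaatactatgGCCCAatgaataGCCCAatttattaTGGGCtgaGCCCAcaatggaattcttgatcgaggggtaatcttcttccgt
RPN1A (chr2:8858712-8858961, plus strand): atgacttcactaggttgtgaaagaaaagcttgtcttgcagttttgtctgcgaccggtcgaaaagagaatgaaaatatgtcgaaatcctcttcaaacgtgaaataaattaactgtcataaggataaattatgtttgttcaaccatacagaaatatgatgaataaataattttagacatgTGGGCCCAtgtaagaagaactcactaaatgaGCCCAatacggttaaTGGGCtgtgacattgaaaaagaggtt
The windows before RPN1A and RPN1B, which were higher, hold 4 and 5 matches, and that before PBB1, which was lower, holds 3. Matches on both strands were counted, and 2 of the 4 before RPN1A share bases within TGGGCCCA. A match describes the letters of the window and is no evidence that a factor binds there.

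The alpha ring forms the gated entrance of the core. Among its genes the largest differences were those of PAB2 (AT1G79210), PAD1 (AT3G51260) and PAD2 (AT5G66140). PAB2 was at 13.0, 15.5 and 16.1 FPKM in fip37-4 LEC1:FIP37, against 26.8, 24.8 and 28.0 FPKM in Wild-type. PAD1 was at 22.7, 23.5 and 24.1 FPKM in fip37-4 LEC1:FIP37, against 42.2, 40.02 and 42.2 FPKM in Wild-type, and its paralog PAD2 at 11.5, 10.999 and 11.3 FPKM in fip37-4 LEC1:FIP37, against 20.5, 18.8 and 20.2 FPKM in Wild-type. The highest fip37-4 LEC1:FIP37 library of each gene lay well below the lowest Wild-type library. Their log2 fold changes were -0.82, -0.81 and -0.79, with standard errors of 0.0835, 0.0459 and 0.0499 (limma adjusted p = 7.29e-05, 4.10e-06 and 6.42e-06).

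The smallest differences in the alpha ring were those of PAA2 (AT2G05840), PAC1 (AT3G22110) and PAF2 (AT1G47250). PAA2 was at 29.2, 30.5 and 29.5 FPKM in fip37-4 LEC1:FIP37, against 35.4, 34.6 and 36.6 FPKM in Wild-type (log2 fold change -0.25, SE 0.0440, limma adjusted p = 0.00132). PAC1, the only one of the 51 genes at its position and the most abundant alpha gene in both genotypes, was at 53.6, 55.3 and 58.3 FPKM in fip37-4 LEC1:FIP37, against 66.3, 66.7 and 68.9 FPKM in Wild-type (-0.27, SE 0.0473, limma adjusted p = 0.00134). PAF2 was at 12.3, 14.5 and 15.1 FPKM in fip37-4 LEC1:FIP37, against 18.2, 16.5 and 17.2 FPKM in Wild-type (-0.30, SE 0.0778, limma adjusted p = 0.0102). The groups did not overlap in any of these 3 genes, but PAA2 and PAC1 lost their calls after quantile normalization (limma adjusted p = 0.145 and 0.893), and PAF2 lost its own there and after correction for transcript length (0.0708 and 0.0979). The PAF2 locus also shares 1652 nt with AT1G47260 on the other strand, and since the labels do not say whether fragments were counted by strand, its value is uncertain. The other 6 genes lay between, with log2 fold changes of -0.70 for PAA1 (AT5G35590), -0.69 for PAE1 (AT1G53850), -0.53 for PAB1 (AT1G16470), -0.52 for PAE2 (AT3G14290), -0.46 for PAF1 (AT5G42790) and -0.40 for PAG1 (AT2G27020).

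The beta ring holds the proteolytic sites. The genes of its catalytic subunits were all lower: PBA1 (AT4G31300), of the caspase-like site, by a log2 fold change of -0.62, PBB1 (AT3G27430) and PBB2 (AT5G40580), of the trypsin-like site, by -0.79 and -0.42, and PBE1 (AT1G13060) and PBE2 (AT3G26340), of the chymotrypsin-like site, by -0.61 and -0.29. PBA1 was at 34.9, 32.4 and 34.1 FPKM in fip37-4 LEC1:FIP37, against 53.3, 50.6 and 52.4 FPKM in Wild-type. PBB1 was at 25.5, 24.2 and 25.5 FPKM in fip37-4 LEC1:FIP37, against 43.8, 43.6 and 43.9 FPKM in Wild-type, so that libraries of 1 genotype lay far closer to each other than to the other genotype.

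The largest difference of all 51 genes was that of PBG1 (AT1G56450), a structural beta subunit encoded by a single gene. It was at 22.8, 27.3 and 25.7 FPKM in fip37-4 LEC1:FIP37, against 46.6, 49.1 and 49.0 FPKM in Wild-type. The groups were far apart, and on the log2 scale PBG1 stood at -0.92 (SE 0.0669, limma adjusted p = 1.20e-05), at -0.74 after quantile normalization and -0.80 after length correction. PBF1 (AT3G60820), another structural subunit with a single gene, was at 39.3, 37.4 and 38.4 FPKM in fip37-4 LEC1:FIP37, against 68.0, 66.9 and 72.6 FPKM in Wild-type (log2 fold change -0.84, SE 0.0482, limma adjusted p = 4.24e-06). PBD2 (AT4G14800) was at 18.3, 19.9 and 19.8 FPKM in fip37-4 LEC1:FIP37, against 36.2, 32.3 and 36.2 FPKM in Wild-type (-0.84, SE 0.0607, limma adjusted p = 1.22e-05).

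The smallest differences in the beta ring were those of PBC2 (AT1G77440), PBE2 and PBC1 (AT1G21720). PBC2 was at 19.96, 23.5 and 22.5 FPKM in fip37-4 LEC1:FIP37, against 26.6, 25.3 and 26.3 FPKM in Wild-type (log2 fold change -0.24, SE 0.0637, limma adjusted p = 0.0106). PBE2, the least abundant beta gene, was at 6.60, 7.54 and 8.28 FPKM in fip37-4 LEC1:FIP37, against 9.24, 8.30 and 10.15 FPKM in Wild-type (-0.29, SE 0.0950, limma adjusted p = 0.0290). The highest PBE2 value of fip37-4 LEC1:FIP37 nearly reached the lowest of Wild-type. PBC1 was at 27.5, 27.5 and 28.0 FPKM in fip37-4 LEC1:FIP37, against 35.2, 34.9 and 38.6 FPKM in Wild-type (-0.38, SE 0.0508, limma adjusted p = 0.000295). PBC2 lost its call after quantile normalization and after length correction (limma adjusted p = 0.28 and 0.327), and PBE2 after length correction (0.184), with each transcript on its own (0.0527) and without fip37-4 LEC1:FIP37 replicate 1 or 2 or Wild-type replicate 1 or 3 (0.0586 to 0.105). PBD1 (AT3G22630), at 16.7, 22.3 and 22.9 FPKM in fip37-4 LEC1:FIP37, against 27.6, 26.2 and 28.1 FPKM in Wild-type, had the largest standard error of the 51 genes (0.112), with fip37-4 LEC1:FIP37 replicate 1 well below the other two of its genotype, and its log2 fold change of -0.41 lost its call after quantile normalization and length correction (limma adjusted p = 0.0799 and 0.126) and was -0.26 without that replicate.

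PBF1 had 2 isoforms above trace levels. The isoform AT3G60820.1 was at 19.7, 29.0 and 28.6 FPKM in fip37-4 LEC1:FIP37, against 56.3, 53.2 and 56.1 FPKM in Wild-type (log2 fold change -1.10, limma adjusted p = 0.000863 over single transcripts). The isoform AT3G60820.3 was at 19.6, 8.36 and 9.78 FPKM in fip37-4 LEC1:FIP37, against 11.6, 13.8 and 16.3 FPKM in Wild-type, values that overlap (-0.22, limma adjusted p = 0.582). In fip37-4 LEC1:FIP37 replicate 1 both isoforms had nearly equal values, unlike in the other 5 libraries. Several isoforms were listed for 21 of the 51 genes, and apart from PBF1, RPN13 (AT2G26590), RPN7 (AT4G24820) and PBC2 a single isoform made up over 95% of the level in both genotypes.

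The RPT ATPases form the unfolding ring of the 19S particle. RPT6A (AT5G19990), RPT4B (AT1G45000) and RPT1A (AT1G53750) differed most. RPT6A was at 20.4, 24.8 and 24.98 FPKM in fip37-4 LEC1:FIP37, against 33.7, 33.2 and 36.0 FPKM in Wild-type (log2 fold change -0.55, SE 0.0801, limma adjusted p = 0.000510). RPT4B was at 23.8, 24.5 and 23.6 FPKM in fip37-4 LEC1:FIP37, against 34.0, 33.8 and 36.4 FPKM in Wild-type (-0.53, SE 0.0469, limma adjusted p = 3.42e-05), and RPT1A at 41.6, 47.9 and 46.0 FPKM in fip37-4 LEC1:FIP37, against 61.3, 60.5 and 63.6 FPKM in Wild-type (-0.45, SE 0.0586, limma adjusted p = 0.000268). In each of these genes the groups were clearly separate. RPT5A (AT3G05530), whose tail in yeast helps to open the alpha-ring gate, differed by -0.45, and RPT2A (AT4G29040), known from Arabidopsis mutants with enlarged leaves, by -0.36.

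The smallest called differences of RPT genes were those of RPT5B (AT1G09100), RPT3 (AT5G58290) and RPT4A (AT5G43010). RPT5B was at 7.27, 7.44 and 6.65 FPKM in fip37-4 LEC1:FIP37, against 8.56, 8.31 and 8.38 FPKM in Wild-type (log2 fold change -0.23, SE 0.0581, limma adjusted p = 0.00936, and 0.0589 after length correction). RPT3, a single gene, was at 52.2, 48.8 and 51.2 FPKM in fip37-4 LEC1:FIP37, against 61.0, 56.7 and 62.2 FPKM in Wild-type (-0.24, SE 0.0518, limma adjusted p = 0.00428). RPT4A was at 15.4, 16.7 and 18.3 FPKM in fip37-4 LEC1:FIP37, against 20.8, 21.2 and 21.0 FPKM in Wild-type (-0.32, SE 0.0637, limma adjusted p = 0.00286). After quantile normalization RPT3 was at 0.00 and RPT4A at -0.16, and both lost their calls (limma adjusted p = 0.983 and 0.063). RPT2B (AT2G20140) and RPT6B (AT5G20000) did not pass the test. RPT2B was at 18.8, 21.0 and 20.9 FPKM in fip37-4 LEC1:FIP37, against 20.6, 21.0 and 22.4 FPKM in Wild-type (log2 fold change -0.08, limma adjusted p = 0.295), and 0.09 after quantile normalization. RPT6B was at 8.11, 10.3 and 8.66 FPKM in fip37-4 LEC1:FIP37, against 10.5, 9.77 and 10.5 FPKM in Wild-type (-0.18, limma adjusted p = 0.0989), and it passed without fip37-4 LEC1:FIP37 replicate 2 (-0.27, limma adjusted p = 0.00901) and after rescaling to nuclear FPKM (-0.20, limma adjusted p = 0.0435).

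RPN1 and RPN2 are the largest subunits of the 19S particle; in yeast, RPN1 is a docking site for shuttle proteins that bring ubiquitinated substrates, and RPN2 anchors the ubiquitin receptor RPN13. Of the 51 genes, theirs were the only ones with log2 fold changes above 0. RPN1A (AT2G20580) was at 47.5, 46.7 and 46.2 FPKM in fip37-4 LEC1:FIP37, against 38.7, 36.9 and 39.2 FPKM in Wild-type. RPN1B (AT4G28470) was at 13.3, 14.2 and 13.3 FPKM in fip37-4 LEC1:FIP37, against 11.7, 11.002 and 11.8 FPKM in Wild-type. In both genes every fip37-4 LEC1:FIP37 library was above every Wild-type library, and the log2 fold changes were 0.29 (SE 0.0435, limma adjusted p = 0.000609) and 0.23 (SE 0.0521, limma adjusted p = 0.00530). RPN2A (AT2G32730) was at 37.1, 35.7 and 35.9 FPKM in fip37-4 LEC1:FIP37, against 33.1, 33.3 and 35.6 FPKM in Wild-type, and RPN2B (AT1G04810) at 12.7, 12.7 and 12.5 FPKM in fip37-4 LEC1:FIP37, against 11.8, 11.7 and 12.6 FPKM in Wild-type. Neither RPN2 gene passed the test (log2 fold changes 0.09 and 0.07, limma adjusted p = 0.120 and 0.238), and their sign changed after length correction (-0.04 and -0.06).

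The remaining 14 RPN genes were all lower, in a narrow range of log2 fold changes from -0.54 to -0.19. RPN8A (AT5G05780), the partner of the deubiquitinase RPN11 (AT5G23540), was at 29.4, 29.9 and 31.7 FPKM in fip37-4 LEC1:FIP37, against 43.9, 44.1 and 44.9 FPKM in Wild-type (log2 fold change -0.54, SE 0.0455, limma adjusted p = 2.56e-05). RPN12A (AT1G64520), known from an Arabidopsis mutant with altered cytokinin responses, was at 35.1, 38.1 and 40.2 FPKM in fip37-4 LEC1:FIP37, against 52.3, 50.8 and 52.4 FPKM in Wild-type (-0.45, SE 0.0557, limma adjusted p = 0.000195). RPN13, a ubiquitin receptor, was at 15.2, 16.0 and 16.1 FPKM in fip37-4 LEC1:FIP37, against 21.2, 21.5 and 20.8 FPKM in Wild-type (-0.42, SE 0.0448, limma adjusted p = 9.26e-05). All 3 genes had separate groups. RPN6 (AT1G29150), a lid subunit that also touches the core and the ATPase ring, differed least, at 44.7, 42.8 and 42.4 FPKM in fip37-4 LEC1:FIP37, against 49.1, 47.8 and 51.9 FPKM in Wild-type (-0.19, SE 0.0481, limma adjusted p = 0.00836), and its value turned to 0.03 after quantile normalization (limma adjusted p = 0.675).

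RPN10 (AT4G38630), another ubiquitin receptor of the particle, differed by -0.32, and RPN11, the metalloprotease that removes ubiquitin chains, by -0.37. The lid subunits of the PCI-domain family include RPN6 and RPN12A, described above, at -0.19 and -0.45. The others of this family lay between them, with log2 fold changes of -0.32 for RPN3A (AT1G20200), -0.33 for RPN3B (AT1G75990), -0.34 for RPN5A (AT5G09900), -0.28 for RPN5B (AT5G64760), -0.36 for RPN7, -0.41 for RPN9A (AT5G45620) and -0.32 for RPN9B (AT4G19006). RPN8B (AT3G11270) was lower too, at -0.34. RPN7 shares 762 nt with AT4G24810 on the same strand, so its value is uncertain. The RPT1A and RPN5A loci share 320 nt and 288 nt with a gene on the other strand, so their values are uncertain too. In all, 19 of the 51 loci overlap another annotated gene.

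Transcript length moved with these differences, both over all tested features and over the proteasome genes. Length here is that of the longest RefSeq transcript of a locus, which was found for 18657 tested features. Among features of at least 2800 nt the median log2 fold change was 0.17 and 46.9% were higher, whereas among those from 1100 to under 1500 nt the median was -0.13 and 43.1% were lower. RPN1A, RPN1B, RPN2A and RPN2B, at 3091, 3252, 3517 and 3435 nt, were the only ones of the 51 genes in the longest class, with a median of 0.16. The 3 proteasome genes from 800 to under 1100 nt had a median of -0.41 beside -0.21 for all features of that length. The 22 from 1100 to under 1500 nt had a median of -0.52, the 19 from 1500 to under 2000 nt a median of -0.33 beside -0.04 for all features, and the 3 from 2000 to under 2800 nt a median of -0.34 beside 0.04. Across the 51 genes, log2 length and log2 fold change had a Pearson r of 0.68, which was 0.41 across the 47 genes that are not RPN1 or RPN2 genes and 0.21 across all 18657 features. Genes are not independent replicates, so these are descriptions.

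After a smooth trend with length had been subtracted, 40 of the 51 genes were lower and 1, RPN1A, was higher, beside 29.3% and 28.0% of all features with a length. The medians were then -0.36 for the alpha ring, -0.43 for the beta ring, -0.28 for RPT genes and -0.26 for RPN genes. RPN1A was at 0.18 (limma adjusted p = 0.00421) and RPN1B at 0.11, where it lost its call (limma adjusted p = 0.0834). Among the 6209 tested features within the range of length (872 to 3517 nt) and mean level (7.77 to 61.5 FPKM) of the proteasome genes, 47.8% were lower and 21.4% were higher, with a median of -0.14.

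**Figure D3:**
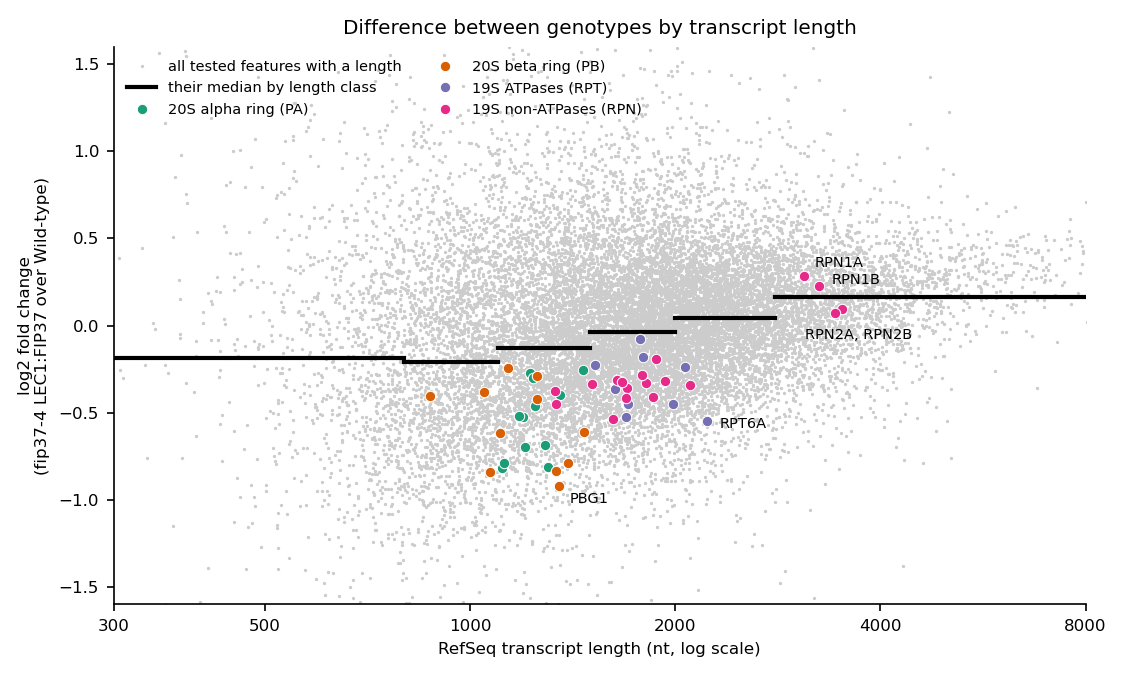
Log2 fold change (fip37-4 LEC1:FIP37 over Wild-type) against RefSeq transcript length on a log axis for tested features (grey, of which 207 lie outside the axes) and the 51 proteasome genes (coloured by subcomplex), with black lines at the median of all features in each length class. The RPN1 and RPN2 genes lie near the line of the longest class, at 0.17, and most other proteasome genes lie below the line of their class.

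The 51 genes encode 32 subunit positions, of which 19 are represented by a pair of paralogs and 13 by 1 gene. PAC2, RPT1B and RPN12B, related to genes of 3 of these 13, and the genes of the DSS1 subunit are not among the 51 and are described with the accessory genes. The FPKM of paralogs were summed for each position. Over the 14 positions of the 20S core, the coefficient of variation of these sums was 21.7%, 20.3% and 20.6% in the 3 fip37-4 LEC1:FIP37 libraries, against 13.1%, 13.7% and 14.8% in the 3 Wild-type libraries. The core positions were thus less even in each fip37-4 LEC1:FIP37 library than in any Wild-type library. The RPN positions were so too, at 31.6%, 30.2% and 29.3% in fip37-4 LEC1:FIP37, against 22.0%, 21.6% and 22.4% in Wild-type. These RPN coefficients include RPN1 and RPN2, the only positions with higher sums in fip37-4 LEC1:FIP37. RPN1 was the highest RPN position in every fip37-4 LEC1:FIP37 library, and RPN5 in every Wild-type library. Whether the other RPN positions differ in evenness was not tested, and no coefficient was corrected for transcript length. Over the RPT positions the coefficients overlapped, at 21.8%, 13.4% and 15.9% in fip37-4 LEC1:FIP37, against 15.4%, 15.6% and 14.9% in Wild-type. Across all 32 positions the coefficient was 25.1%, 22.9% and 23.1% in fip37-4 LEC1:FIP37, against 21.7%, 21.9% and 22.2% in Wild-type.

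RPN13 had the lowest sum in all 6 libraries. The highest sum was that of RPN1 in all 3 fip37-4 LEC1:FIP37 libraries, at 60.8, 60.9 and 59.5 FPKM, against 50.4, 47.95 and 51.02 FPKM in Wild-type. PAA, the highest position in all 3 Wild-type libraries, was at 58.5, 58.3 and 57.4 FPKM in fip37-4 LEC1:FIP37, against 80.5, 80.5 and 84.2 FPKM in Wild-type. PBG was the lowest position of the 20S core in every library. Its sums stood beside core medians of 39.0, 41.7 and 42.6 FPKM in fip37-4 LEC1:FIP37 and of 63.0, 59.5 and 64.1 FPKM in Wild-type. The differences of the 32 positions ran from -47.6% for PBG to 21.3% for RPN1, with 6.30% for RPN2.

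**Figure D4:**
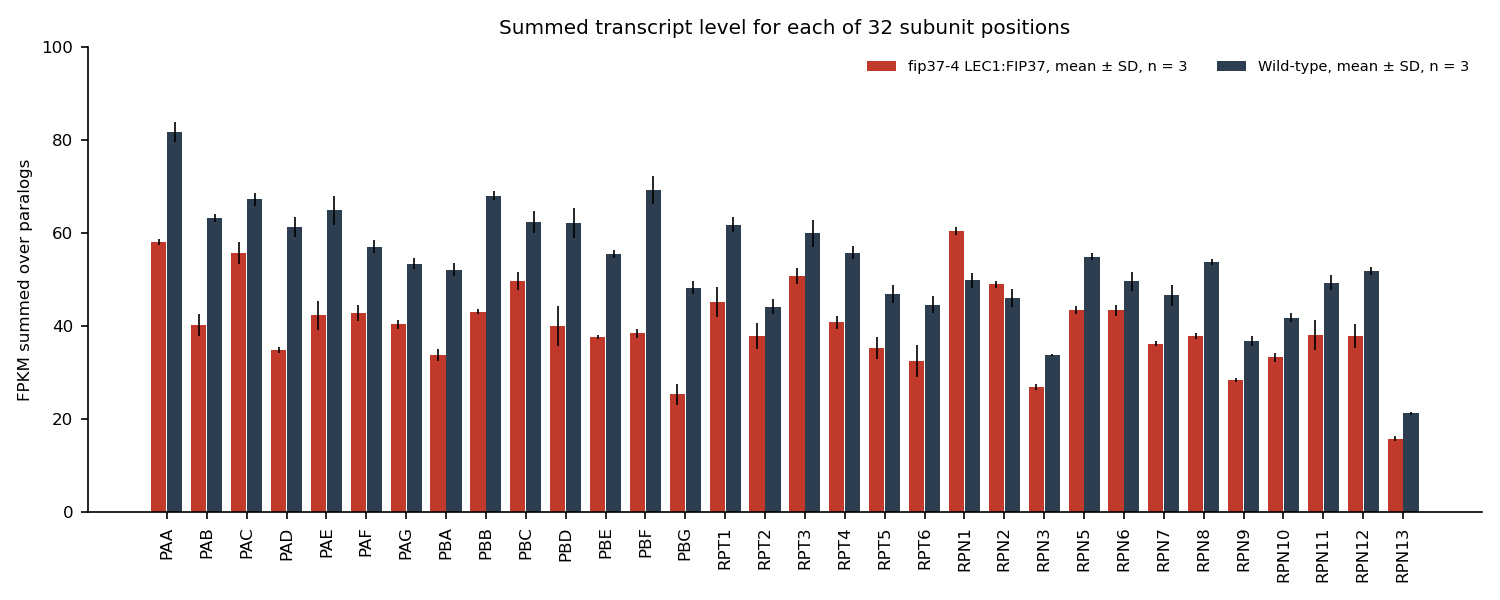
FPKM summed over paralogs for each of the 32 subunit positions, as the mean and SD of 3 libraries, with fip37-4 LEC1:FIP37 left of Wild-type. Bars of fip37-4 LEC1:FIP37 are lower at every position but RPN1 and RPN2, and the 14 positions of the 20S core from PAA to PBG are less even in fip37-4 LEC1:FIP37.

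Within the 19 pairs, paralogs moved in the same direction wherever both passed the test. Their coding sequences are 80.3% to 94.4% identical. The authors' division of fragments between them can thus be a source of error, most of all for RPT6A and RPT6B at 94.4%. RPT1A and the related RPT1B, which is listed with the accessory genes, are not among these pairs and were called in opposite directions. RPT1A was lower (log2 fold change -0.45, limma adjusted p = 0.000268) and RPT1B was higher (0.21, limma adjusted p = 0.0183). After length correction RPT1B was at 0.07 and lost its call. The share of the first-named paralog in its pair was tested by exact two-sided permutation over the 6 libraries, a test whose smallest p with 3 against 3 is 0.1, so no pair could pass 0.05. In 7 of 19 pairs the shares of the groups did not overlap (exact permutation p = 0.1 each).

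PAA1 held 50.1%, 47.8% and 48.6% of the PAA sum in fip37-4 LEC1:FIP37, against 56.0%, 57.0% and 56.5% in Wild-type. PBD1 held 47.8%, 52.9% and 53.7% of the PBD sum in fip37-4 LEC1:FIP37, against 43.3%, 44.8% and 43.7% in Wild-type. The PBD1 and PBD2 loci share 398 nt and 217 nt with a gene on the other strand, so the PBD shares are uncertain. RPT2A held 45.8%, 47.4% and 46.3% of the RPT2 sum in fip37-4 LEC1:FIP37, against 53.1%, 50.8% and 51.04% in Wild-type. In these 3 pairs the paralog with the larger mean share was not the same in the 2 genotypes. On average PBB1 held 58.2% in fip37-4 LEC1:FIP37 and 64.4% in Wild-type, and RPT6A held 72.1% in fip37-4 LEC1:FIP37 and 77.0% in Wild-type. The shares of PAB1 and RPT4A were larger, at 63.1% and 41.2% in fip37-4 LEC1:FIP37 against 58.0% and 37.7% in Wild-type. In the other 12 pairs the shares overlapped, for example with PAD1 at 67.5% in fip37-4 LEC1:FIP37 and 67.6% in Wild-type (exact permutation p = 0.9) and RPN3A at 69.4% in fip37-4 LEC1:FIP37 and 69.1% in Wild-type (exact permutation p = 1).

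In 15 of the 19 pairs the paralog that was more abundant in Wild-type had the lower log2 fold change. The count was 16 after length correction and 13 after quantile normalization. The Wild-type level enters both quantities, so the count is a description of these libraries.

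**Figure D5:**
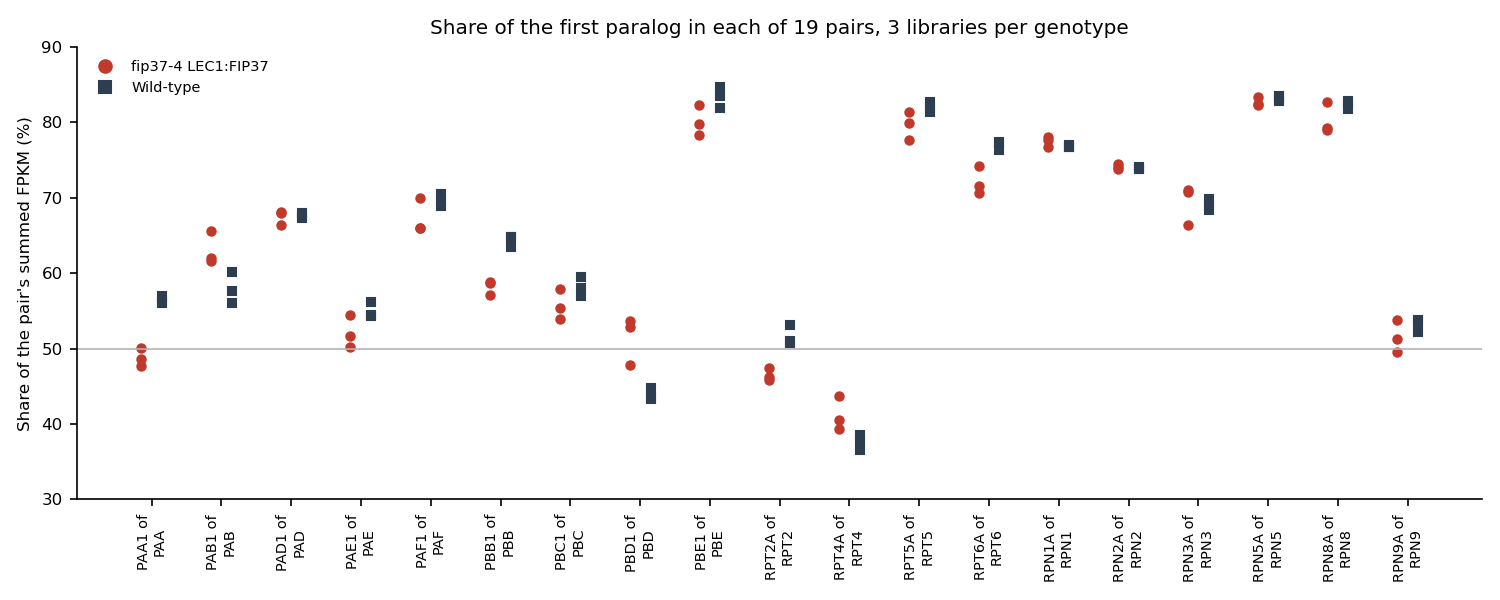
Share of the first-named paralog in the summed FPKM of its pair, in percent, for the 3 fip37-4 LEC1:FIP37 libraries (circles) and the 3 Wild-type libraries (squares) of each of 19 pairs, with a grey line at 50%. Circles and squares do not overlap in the PAA, PAB, PBB, PBD, RPT2, RPT4 and RPT6 pairs.

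Genes that assemble or modify the proteasome were listed separately, as 12 loci of which 11 were tested. Of these 5 were lower and 4 were higher, beside 30.9% and 27.6% of all tested features, with a median log2 fold change of -0.05. UMP1A, a chaperone of core assembly, was at 12.0, 18.7 and 16.1 FPKM in fip37-4 LEC1:FIP37, against 35.0, 33.5 and 34.7 FPKM in Wild-type. The groups were wide apart, and its log2 fold change, -1.14 (SE 0.142, limma adjusted p = 0.000475), was larger than that of any subunit gene. Its paralog UMP1B differed by -0.57, and DSS1V and DSS1I, which encode the small DSS1 subunit of the lid, by -0.67 and -0.62. PTRE1, a relative of the mammalian proteasome regulator PI31, differed by -0.35.

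The accessory genes that were higher were ECM29 (0.33), which in yeast binds core and cap together, NAC53 (0.26), RPT1B (0.21) and PA200 (0.16), an alternative cap. At 5914, 2518, 3515 and 5907 nt they are long transcripts. After length correction ECM29, RPT1B and PA200 lost their calls, with log2 fold changes of 0.06, 0.07 and -0.11, while NAC53 and PAC2 were higher. PA200 also lost its call without any single library other than fip37-4 LEC1:FIP37 replicate 1 (limma adjusted p = 0.0551 to 0.0938) and after rescaling to nuclear FPKM (limma adjusted p = 0.111). RPT1B lost its call without fip37-4 LEC1:FIP37 replicate 2 or 3 or Wild-type replicate 1 or 3 (limma adjusted p = 0.0512 to 0.0644). The related subunit gene RPT1A was lower, at a log2 fold change of -0.45. NAC78, the partner of NAC53, was at 18.2, 18.5 and 19.3 FPKM in fip37-4 LEC1:FIP37, against 19.3, 18.8 and 19.9 FPKM in Wild-type, and did not pass the test (limma adjusted p = 0.379). PAC2, a paralog of PAC1 at a far lower level, was at 0.937, 0.643 and 0.666 FPKM in fip37-4 LEC1:FIP37, against 0.490, 0.622 and 0.716 FPKM in Wild-type and did not pass in the uncorrected values (limma adjusted p = 0.307). RPN12B was under the filter, at 0.531, 0.394 and 0.551 FPKM in fip37-4 LEC1:FIP37, against 0.219, 0.298 and 0.348 FPKM in Wild-type.

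Along the ubiquitin route to the proteasome, 12 of 20 tested genes were lower and 1 was higher, beside 30.9% and 27.6% of all tested features, with a median of -0.17. Without fip37-4 LEC1:FIP37 replicate 1, 5 were higher, and without fip37-4 LEC1:FIP37 replicate 3 or Wild-type replicate 3, 8 were lower. The deubiquitinases UCH3, UBP6 and UCH2 differed by -0.65, -0.60 and -0.41, and the shuttle protein DDI1 by -0.31. UBP6, which in yeast docks on RPN1, was at 14.6, 17.5 and 19.02 FPKM in fip37-4 LEC1:FIP37, against 25.6, 25.4 and 27.1 FPKM in Wild-type, without overlap. The single higher gene was the polyubiquitin gene UBQ11 (0.31). The other listed polyubiquitin genes, UBQ3, UBQ4, UBQ10 and UBQ14, were at 0.18, 0.16, 0.10 and 0.24 and did not pass the test. Of these, UBQ3, UBQ4 and UBQ14 were called higher after quantile normalization and after length correction. After quantile normalization 5 of the 20 genes were lower and 5 higher, near the shares of all tested features there (27.7% and 27.4%). Of the COP9 signalosome, which is built like the lid and removes the ubiquitin-like NEDD8 from cullin ligases, 7 of 10 tested genes were lower and 0 were higher, with the same shares of all features beside them and a median of -0.30. CSN8, CSN5A, CSN4 and CSN2 differed by -0.76, -0.48, -0.41 and -0.33. CSN8 was at 9.84, 11.5 and 11.3 FPKM in fip37-4 LEC1:FIP37, against 18.8, 17.1 and 20.3 FPKM in Wild-type. CSN5A is 1 of 2 listed genes of the catalytic subunit of the complex. The other, CSN5B, was at means of 2.03 FPKM in fip37-4 LEC1:FIP37 and 1.66 FPKM in Wild-type. Its values overlapped, and it did not pass the test (log2 fold change 0.22, limma adjusted p = 0.293).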

How the data were processed

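The labels describe strand-specific RNA libraries depleted of ribosomal RNA, 3 per genotype. The deposited values are FPKM per transcript, for which the authors used TopHat2 2.0.9, Cufflinks 2.1.1 and build TAIR10, per the submitters' processing notes; no file names the unit, which was inferred from these tools and from the range of the values. Use of strand in counting was not given in the sources used here. Each file lists 36104 transcripts.

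Isoforms were summed per locus. No count model was used on FPKM. The 19383 features that reached 0.5 FPKM in 3 or more of the 6 libraries were compared as log2(FPKM + 0.5), a scale that understates changes at low levels, with limma 3.58.1 in R 4.3.3 (trended, robust empirical Bayes; the model held genotype alone), and p-values were adjusted over all of them by Benjamini-Hochberg. The fit was also run on simulated data with independent noise, few changed features and no trend with length. These settings differ from the data, so that run does not test the calls made here. Paralog shares were tested by exact two-sided permutation, with Python 3.11.15 and SciPy 1.17.1. Alternatives were pseudocounts of 0.1 and 1, no filter and a filter of 1 FPKM, plain empirical Bayes, quantile normalization, rescaling to nuclear FPKM, subtraction of a lowess trend with length (span 0.3), each transcript on its own, the replicate number as a block, and leaving out each library. In place of a table of promoters, windows were read from RefSeq assembly TAIR10.1, whose annotation held all 51 loci; windows reaching 50 bases past the start or 500 bases before it were added after the data had been seen.

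The genes and lists were chosen with earlier results of these data known. Every library's value is given for the 3 lowest and 3 highest called log2 fold changes of each subcomplex, and up to 4 called genes are named per other list. Other values (FIP37 apart: PBA1, PBB1, PBD1, the uncalled subunit genes, the PBF1 isoforms, PTRE1, ECM29, NAC53, NAC78, RPT1B, PA200, PAC2, RPN12B, UBQ3, UBQ4, UBQ10, UBQ11, UBQ14, CDC48A, UBA1, UBA2, CSN5B, CSN7 and the tissue markers) were chosen after they were seen.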

Additional observations from a re-analysis of the deposited data

How the results depend on the processing

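Under all alternatives the median log2 fold change of the 51 subunit genes stayed below 0, and the alpha-ring and beta-ring genes kept a median below 0 too. Quantile normalization moved the medians to -0.25 for the 51 genes, -0.35 for the alpha ring, -0.41 for the beta ring, -0.20 for RPT and -0.16 for RPN genes, with 37 genes lower and 4 higher, although it left the median of all tested features at 0.00; the cause was not tested. All 4 higher genes were RPN genes (RPN1A 0.50, RPN1B 0.33, RPN2A 0.29, RPN2B 0.17). Length correction moved the medians to -0.30 for the 51 genes, -0.36 for the alpha ring, -0.43 for the beta ring and -0.26 for RPN genes, with 1 RPN gene, RPN1A, still higher. Single values changed sign in RPT2B (0.09), RPN6 (0.028) and NAC78 (0.10) after quantile normalization, as did CDC48A (0.17, called, against -0.14), PYK10 (-0.44), UBA1 (0.10), UBA2 (0.07) and CSN7 (0.01), and in RPN2A (-0.044), RPN2B (-0.058) and PA200 (-0.11) after length correction. Leaving out each library in turn gave 44 to 45 lower and 2 higher subunit genes, 10 to 11 lower beta-ring and 8 to 9 lower RPT genes. The median of the accessory genes was 0.053 with no filter, 0.035 with quantile normalization, -0.20 with a filter of 1 FPKM and -0.11 with length correction, and the number of them called higher was 2 with length correction and 2 to 4 without single libraries. For the ubiquitin route, quantile normalization gave 5 lower and 5 higher of 20 genes and a median of -0.011. Of all tested features, 27.7% were lower and 27.4% higher under that setting. Higher genes of the route numbered 3 after rescaling to nuclear FPKM (23.7% of all tested features) and 4 after length correction (28.0%). Leaving out single libraries gave 1 to 5 higher and 8 to 12 lower genes of the route. The median of the COP9 signalosome was -0.19 with quantile normalization and -0.22 with length correction. Without single libraries the difference in the PAD1 share ran from -0.435 to 0.415 percentage points and that in the RPN3A share from -0.505 to 1.82. Same-numbered replicates did not pair: their deviations from the group means had correlations of -0.0278, -0.0491 and -0.0573, and the replicate block left 45 genes lower and 2 higher, while PA200 lost its call (limma adjusted p = 0.0636). In windows from 250 bases before to 50 after the start and of 500 bases before it, chosen after seeing the data, TGGGC was present for 30 and 28 of the 51 subunit genes and for 7132 and 9003 of 27443 protein-coding genes. The labels give no batch, and without a known number of fragments no counting interval can be given.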
